A study of Mus musculus with 22 samples.

Results

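The genes described here encode the subunits of voltage-gated sodium and calcium channels. They were taken as every protein-coding gene whose symbol follows the naming pattern of the sodium channel alpha subunits (Scn followed by a number and a), the sodium channel beta subunits (Scn, a number and b), or the calcium channel alpha1 (Cacna1), alpha2delta (Cacna2d) and beta (Cacnb) subunits. The pattern picked 32 of the 39179 genes in the count tables, of which 10 encode sodium channel alpha subunits, 4 sodium channel beta subunits, 10 calcium channel alpha1 subunits, 4 alpha2delta subunits and 4 calcium channel beta subunits. No expression value entered that choice. RNA was sequenced from wild-type (WT) and Phf8 knockout (KO) mice of a B6x129SvJ background, and each group had 3 libraries except the embryonic stem cells (ESCs), which had 2 per genotype. Prefrontal cortex (PFC) and ventral striatum (STR) came from animals 2 months of age, neural progenitor cells (NPCs) were cultured as a monolayer from E16.5 embryos, and ESCs were grown from blastocyst outgrowths on gelatin or feeder cells. The KO allele of the X-linked Phf8 gene lacks exons of the catalytic domain of PHF8, a demethylase that removes repressive methyl groups from histones. The deletion was made with Cre in cultured ESCs that were then used to make the mice, so it is not limited to a cell type.

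A voltage-gated channel opens when the membrane depolarises. The alpha subunit of a sodium channel forms the pore that carries the rising phase of the action potential, and the beta subunits are small membrane proteins that set where the pore sits and how fast it closes. In calcium channels the alpha1 subunit is the pore, with L-type, P/Q-type, N-type, R-type and low-threshold T-type forms, while alpha2delta and beta subunits help bring the pore to the surface and tune its gating. Neurons of the cortex and of the striatum fire in different ways, and both use several of these genes at once.

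Libraries held between 5898286 and 10148073 gene counts in the brain and between 11455757 and 15539811 in the cultured cells, and the member genes took 0.404% to 0.492% of the counts in brain libraries, 0.0511% to 0.0619% in NPCs and 0.0138% to 0.0178% in ESCs. Phf8 itself lay at 38.4 to 49.8 CPM (counts scaled to library size) in WT brain libraries and at 13.4 to 20.7 CPM in KO brain libraries, with the remaining exons still counted. In NPCs Phf8 was at 41.0 to 43.5 CPM in WT and 14.8 to 16.4 CPM in KO, and in ESCs at 62.7 to 70.3 and 16.2 to 22.2 CPM. Markers of cortical projection neurons summed to 869 to 1090 CPM in WT PFC and markers of striatal projection neurons to 1570 to 1760 CPM in WT STR, as the labels say, although WT STR also held 382 to 550 CPM of the cortical markers. Several libraries stood apart. In PFC WT replicate 3, the shallowest library, genes with more than 10 kb of exon were lower and genes with under 2 kb higher than in the other PFC libraries, by −0.33 (log2, long minus short) against 0.03 to 0.13. STR KO replicate 1 had 201 CPM of hypothalamic markers against 15.3 to 34.8 CPM in the other STR libraries, and 68.8 CPM of cortical markers against at least 365 CPM. NPC replicate 2 of both genotypes had 222 and 421 CPM of oligodendrocyte markers where no other NPC library had under 1960 CPM. Values without these libraries stand beside some of the differences named here. For others, such as the difference of the KO effect between PFC and STR, only counts of calls without them are given.

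In WT brain, beta subunits of the sodium channel were among the highest members per length. Levels are given as RPKM, reads scaled to exon length and to library size. Scn2b reached 58.4 ± 3.10 RPKM in PFC and 61.9 ± 3.46 RPKM in STR (mean ± SD, n = 3). In STR, Scn4b lay above Scn2b with 87.5 ± 4.22 RPKM, and the values of these genes did not overlap. In PFC Scn4b ranked below Scn2b and Cacnb3, and its values overlapped those of Cacnb1. Of the 32 members, 23 averaged at least 1 RPKM in PFC and 25 in STR.

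Among the sodium channel alpha subunits, Scn8a, Scn2a and Scn1a, the main pore genes of central neurons, made up most of the family in both regions. In PFC WT they gave 35.3% ± 0.749, 32.6% ± 1.41 and 24.6% ± 0.834 of the summed alpha RPKM. In STR WT the shares were 29.0% ± 1.30, 30.3% ± 0.522 and 20.3% ± 0.741, with another 12.3% ± 1 from Scn3a. Scn4a, the pore of skeletal muscle, had at most 1 count in any brain library. Among the calcium channel pores no gene led alone: Cacna1b, Cacna1i and Cacna1a gave 19.2% ± 0.566, 18.8% ± 1.51 and 18.7% ± 0.732 of the summed alpha1 RPKM in PFC WT. Cacna1f, the retinal L-type pore, and Cacna1s, the skeletal muscle L-type pore, stayed under 0.4 RPKM in every brain library.

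**Figure D1:**
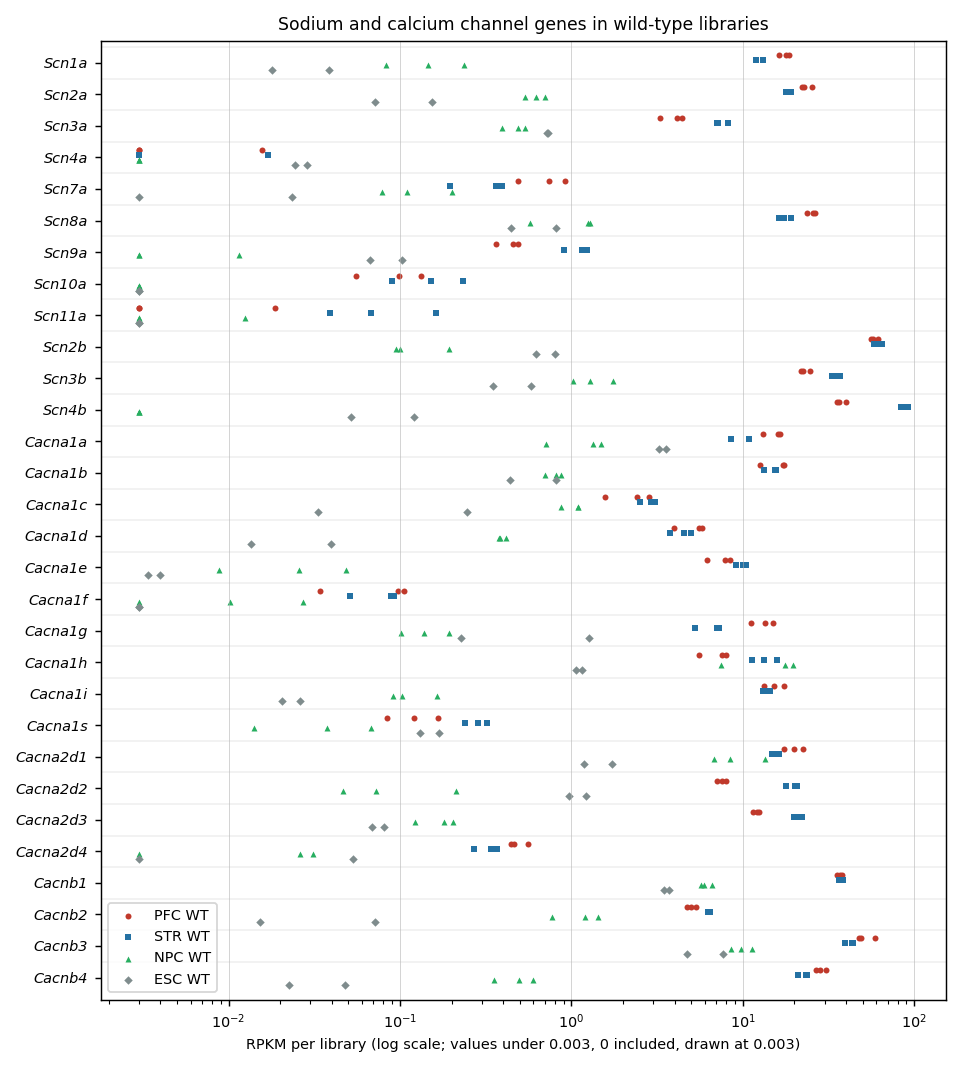
RPKM on a log axis for 30 of the channel genes in WT libraries, 1 point per library, for PFC (red circles), STR (blue squares), NPC (green triangles) and ESC (grey diamonds). Most genes lie far to the right in both brain regions, whereas Cacna1h and Cacna2d1 reach or approach the brain levels in NPCs.

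The first comparison set WT PFC against WT STR. Of the 28 members with enough counts to test, 19 differed between the regions (edgeR quasi-likelihood test, Benjamini-Hochberg adjusted p under 0.05 over all 15555 genes tested). In PFC 8 were higher and 11 lower, against 13% and 11.4% of all genes tested. Scn4a, Scn10a, Scn11a and Cacna1f were too low to test. The median log2 difference of the 28 was 0.01, against −0.01 over all genes. In bulk tissue, fewer cells of a type and less RNA per cell cannot be told apart. The summed markers of cortical and of striatal projection neurons differ between the same libraries, and their part in the differences was not tested.

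Of the sodium channel alpha genes, Scn3a, Scn2a, Scn1a, Scn9a and Scn7a lie in one cluster on chromosome 2 (GRCm38, 65457118 to 66784914), and they did not move in 1 direction. Scn3a, a pore of developing neurons, measured 4.41, 4.12 and 3.31 RPKM in PFC WT and 8.23, 7.14 and 7.08 RPKM in STR WT. The groups did not overlap, and Scn3a was lower in PFC by a log2 difference of −0.94 ± 0.11 (adjusted p = 0.0001479, edgeR). Scn9a, best known from pain-sensing neurons, was also lower in PFC, at 0.459, 0.364 and 0.489 RPKM against 1.24, 0.900 and 1.15 RPKM in STR (log2 difference −1.37 ± 0.19, adjusted p = 0.0004009, edgeR).

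Scn1a and Scn2a, 2 of the main neuronal pores in that cluster, went the other way. Scn1a measured 17.9, 18.7 and 16.3 RPKM in PFC WT and 11.99, 13.1 and 11.9 RPKM in STR WT, again without overlap (log2 difference 0.49 ± 0.08, adjusted p = 0.001295, edgeR). Scn2a measured 25.3, 22.7 and 22.1 RPKM in PFC WT against 18.3, 19.1 and 17.8 RPKM in STR WT, a smaller difference of 0.32 ± 0.08 (adjusted p = 0.01612, edgeR) that missed the threshold without STR WT replicate 3 or without PFC WT replicate 1. Scn7a, which encodes a sodium-sensing relative of the pores found mainly in glia and peripheral tissue, had 61, 62 and 23 counts in PFC WT and 29, 23 and 12 in STR WT. Its log2 difference was 1.15 ± 0.31 (adjusted p = 0.02054, edgeR), and it missed the threshold in 3 of the 6 fits that left out a library (without STR WT replicate 3, PFC WT replicate 1 or PFC WT replicate 2). Scn8a, on chromosome 15, was likewise higher in PFC, with 25.9, 26.3 and 23.7 RPKM in PFC WT against 17.4, 19.1 and 16.4 RPKM in STR WT (log2 difference 0.49 ± 0.09, adjusted p = 0.001997, edgeR).

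Of the sodium channel beta subunits, Scn4b (chromosome 9, 45138395 to 45154152), which shapes the fast return of sodium current in striatal and cerebellar neurons, and Scn3b were lower in PFC. Scn4b measured 36.6, 35.6 and 39.8 RPKM in PFC WT and 86.7, 83.7 and 92.0 RPKM in STR WT. Each STR value was above every PFC value by more than the spread within either group, with a log2 difference of −1.26 ± 0.08 (adjusted p = 3.031e-06, edgeR). Scn3b measured 22.5, 21.8 and 24.8 RPKM against 34.6, 33.4 and 37.0 RPKM (−0.63 ± 0.08, adjusted p = 0.0002685, edgeR). Scn2b was not called, and its log2 difference of −0.11 had a 95% interval of −0.29 to 0.07.

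Scn2b and Scn4b are neighbours on chromosome 9, on the same strand and 8.32 kb apart, and only Scn4b was called. The 250 bases before each start, from RefSeq on GRCm38.p6 and read 5′ to 3′ on the gene's strand, are shown so that these neighbours can be compared. RefSeq starts differ from the GENCODE gene starts, 45117782 for Scn2b and 45138395 for Scn4b. Both windows therefore run into the GENCODE gene span. Capitals mark any match, on either strand, to the 3 motifs searched. The GC box of the factor SP1 was searched as GGGCGG, either strand. The TATA box of the core promoter was searched as TATAAA, either strand. The RE1 element was searched as its left part CAGCACC, followed after 2 bases by its right part, which reads GGACAG on the same strand.
Scn2b, chr9:45117626-45117875: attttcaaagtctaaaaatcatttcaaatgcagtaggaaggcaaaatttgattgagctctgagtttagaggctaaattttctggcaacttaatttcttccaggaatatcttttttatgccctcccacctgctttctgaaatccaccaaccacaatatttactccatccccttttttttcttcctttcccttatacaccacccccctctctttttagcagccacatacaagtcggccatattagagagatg
Scn4b, chr9:45138374-45138623: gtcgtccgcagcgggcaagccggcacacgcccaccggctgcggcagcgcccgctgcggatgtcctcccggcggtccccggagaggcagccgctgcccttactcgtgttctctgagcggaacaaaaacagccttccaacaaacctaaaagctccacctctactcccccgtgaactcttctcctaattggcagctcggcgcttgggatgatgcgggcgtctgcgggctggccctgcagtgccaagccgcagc
Neither window holds any of these motifs, so neither has capitals, and G and C made up 38.4% of the Scn2b window and 66.0% of the Scn4b window. Windows were at hand for 24 of the 32 members. A GC box was found in 13 of the 34 member windows and in 32.7% of all 32851 windows of the same length, a TATA box in 2 and in 12.4%, and the RE1 parts, which the neuronal gene repressor REST binds, in 0 and in 0.0335%. A match or its absence in so short a window is a description of letters and not of binding.

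Of the calcium channel pores, Cacna1g and Cacna1a were higher in PFC and Cacna1h and Cacna1e lower. Cacna1g and Cacna1h encode T-type pores, which open near the resting potential, and they went in opposite directions. Cacna1g measured 15.03, 13.6 and 11.2 RPKM in PFC WT and 7.31, 7.10 and 5.27 RPKM in STR WT (log2 difference 0.99 ± 0.14, adjusted p = 0.0004094, edgeR). Cacna1h measured 7.998, 7.59 and 5.53 RPKM in PFC WT and 15.9, 13.2 and 11.3 RPKM in STR WT (−0.96 ± 0.15, adjusted p = 0.0008961, edgeR). Neither pair of groups overlapped. The remaining T-type pore, Cacna1i, was near even, with a log2 difference of 0.14 and a 95% interval of −0.08 to 0.35.

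Cacna1a, the P/Q-type pore that drives transmitter release, measured 15.99, 16.6 and 13.2 RPKM in PFC WT against 10.9, 10.9 and 8.54 RPKM in STR WT (0.57 ± 0.12, adjusted p = 0.004643, edgeR). The N-type pore Cacna1b, which shares that role, was not called (0.07, 95% interval −0.20 to 0.34), nor were the neuronal L-type pores Cacna1c (−0.33, −0.72 to 0.05) and Cacna1d (0.18, −0.14 to 0.51). The R-type pore Cacna1e was lower in PFC by −0.42 ± 0.11 (adjusted p = 0.02066, edgeR), a call lost without STR WT replicate 1 or replicate 2. Cacna1s passed the filter on low counts only through STR WT. It was called lower on 5 to 9 counts in PFC WT and 13 to 21 in STR WT. That call held in only 2 of 6 fits that left out a library, failing without replicates 1 or 2 of either region, and 20% of the exon bases of Cacna1s overlap an antisense gene, whose reads cannot be told apart without strand.

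The alpha2delta family had a different make-up in the 2 regions. Cacna2d2 (chromosome 9, 107399612 to 107529343), the alpha2delta form known from the cerebellar mouse mutant ducky, measured 7.97, 7.52 and 7.07 RPKM in PFC WT and 20.3, 17.8 and 20.6 RPKM in STR WT, a log2 difference of −1.40 ± 0.09 (adjusted p = 1.765e-06, edgeR). Cacna2d3 measured 12.4, 12.2 and 11.4 RPKM against 20.4, 19.9 and 22.2 RPKM (−0.82 ± 0.08, adjusted p = 2.816e-05, edgeR). Cacna2d1, a binding site of the drug gabapentin, went the other way with 22.6, 17.4 and 19.97 RPKM against 14.8, 16.2 and 15.8 RPKM. Its difference of 0.33 ± 0.10 (adjusted p = 0.03537, edgeR) missed the threshold in 4 of 6 fits without a library (any STR WT replicate, or PFC WT replicate 1). Cacna2d1 gave 49.9% ± 3.04 of the summed alpha2delta RPKM in PFC WT and 27.7% ± 1.93 in STR WT, whereas Cacna2d2 gave 18.8% ± 1.01 and 34.7% ± 1.79. The windows before the RefSeq starts of these paralogs are shown because they differ in regional direction, with GC boxes in capitals. The Cacna2d2 window lies wholly inside the GENCODE gene span given above, since its RefSeq start is further downstream. Cacna2d3 lies on the minus strand and the others on the plus strand.
Cacna2d1, chr5:15934441-15934690: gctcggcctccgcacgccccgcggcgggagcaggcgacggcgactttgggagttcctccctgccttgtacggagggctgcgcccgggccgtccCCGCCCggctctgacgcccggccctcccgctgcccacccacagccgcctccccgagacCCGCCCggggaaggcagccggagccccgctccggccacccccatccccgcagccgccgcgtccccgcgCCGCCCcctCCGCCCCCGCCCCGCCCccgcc
Cacna2d2, chr9:107399630-107399879: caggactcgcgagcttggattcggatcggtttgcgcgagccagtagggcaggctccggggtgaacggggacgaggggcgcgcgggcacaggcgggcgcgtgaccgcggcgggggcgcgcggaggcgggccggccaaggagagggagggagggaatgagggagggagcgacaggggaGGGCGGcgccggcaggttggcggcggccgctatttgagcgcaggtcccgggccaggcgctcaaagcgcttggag
Cacna2d3, chr14:29721865-29722114: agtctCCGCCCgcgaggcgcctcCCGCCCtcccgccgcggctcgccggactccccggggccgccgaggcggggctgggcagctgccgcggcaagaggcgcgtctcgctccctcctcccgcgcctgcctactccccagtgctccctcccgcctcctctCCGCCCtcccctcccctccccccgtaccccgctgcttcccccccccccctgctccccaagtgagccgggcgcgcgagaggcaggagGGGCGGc
GC boxes were found in all 3, with 6 matches before Cacna2d1, 1 before Cacna2d2 and 4 before Cacna2d3, and none held a TATA box or the RE1 parts.

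Differences among the calcium channel beta subunits, which sit on the inner face of the pore, were smaller. Cacnb4 measured 30.6, 26.9 and 28.1 RPKM in PFC WT against 23.5, 21.1 and 23.6 RPKM in STR WT (0.30 ± 0.09, adjusted p = 0.02623, edgeR), a call that held in 3 of 6 fits without a library and failed without STR WT replicates 2 or 3 or PFC WT replicate 1. For Cacnb4, 16% of exon bases overlap an antisense gene. Cacnb2 was lower in PFC (−0.37 ± 0.08, adjusted p = 0.005842, edgeR), Cacnb3 was not called (0.27, 95% interval 0.05 to 0.49) and Cacnb1 was near even (−0.04, −0.20 to 0.12).

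The KO libraries, which the WT fit did not use, were then compared in the same way. In KO PFC against KO STR, 18 of 30 members were called, 8 higher and 10 lower in PFC, against 13.8% and 13.9% of all genes. Of the 28 members tested in both genotypes, 26 had the same sign, the exceptions being Cacna1e and Cacnb1. Calls in the same direction in both genotypes numbered 13, which is 68.4% of the WT calls and 72.2% of the KO calls. They included Cacna1a, Cacna1g, Scn1a and Scn8a, higher in PFC, and Cacna2d2, Scn4b, Scn3a, Cacna2d3, Scn9a, Cacna1h, Scn3b and Cacnb2, lower in PFC. The same 13 were the WT calls that held in all 6 fits that left out a library. Cacnb3, Cacna1d and Cacna1i were called higher in PFC in KO alone, and the interaction of region and genotype was not called for any of them. Scn11a was called lower in KO PFC on 1, 1 and 3 counts against 19, 15 and 16. Scn11a passed the filter on low counts only through STR KO, where it is high, so this call is not independent of that filter. Without PFC WT replicate 3 the WT count was again 19, and without STR KO replicate 1 the KO count was 19. With same-numbered libraries as pairs, 22 members were called in WT (10 higher, 12 lower) and 21 in KO (11 higher, 10 lower), with Cacnb3 and Cacna1c among those added in WT and Scn2a, Cacna2d1 and Cacnb4 in KO.

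**Figure D2:**
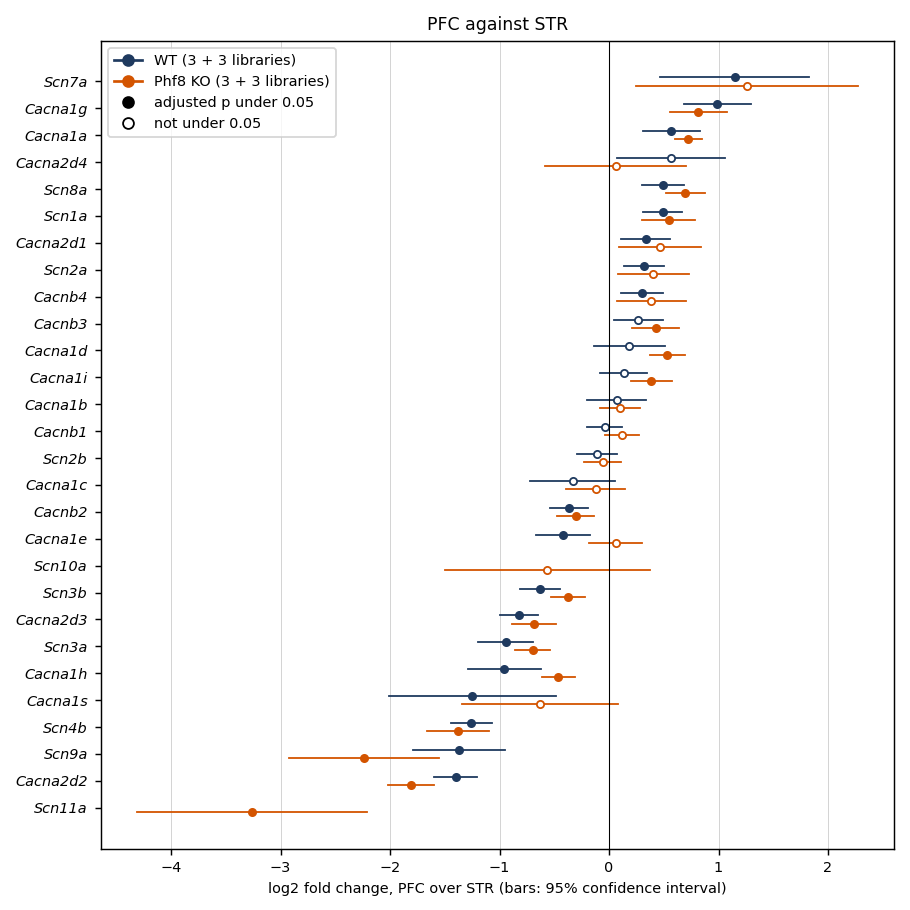
Log2 fold change of PFC over STR with 95% confidence intervals for the members tested, in WT (dark blue) and in KO (orange) libraries, filled where the adjusted p is under 0.05. Cacna2d2 lies at −1.40 in WT and −1.81 in KO and Cacna1g at 0.99 and 0.82, and only Cacna1e and Cacnb1 of the members plotted for both genotypes change side of 0.

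Genes listed as partners of the channels varied by region as well. Of 12 sodium channel partners (the Fgf11 to Fgf14 factors, ankyrins and proteins of the axon initial segment and node), 4 were higher and 3 lower in PFC WT, among them the pore-binding factor Fgf11 at −1.15 ± 0.10 and the adhesion protein Nrcam at 0.45 ± 0.09. Of 22 genes listed as calcium channel partners 20 were tested, with 5 higher and 4 lower. Over all genes tested, 13% were higher and 11.4% lower. Cacng2 and Cacng3 were among the higher and Cacng4 and Cacng5 among the lower. Binding of the Cacng products to these channels was not tested. The release-site protein Rims1 was at 0.81 ± 0.08, whereas the channel inhibitor Rem2 was at −2.76 ± 0.19 and the adaptor Stac at −3.08 ± 0.36. Its paralog Stac2 went the other way, at 1.12 ± 0.10. In the complex of the sodium leak channel, which is no voltage-gated member of either family by the pattern used, Unc80 and Fam155a were higher and Unc79 lower, while the pore gene Nalcn was not called (−0.15 ± 0.08).

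In the cultured cells most channel genes were low. The summed RPKM of the 32 members was 150.7 ± 22.4 in NPC WT and 27.3 ± 6.12 in ESC WT (n = 2), against 550.8 ± 23.4 in PFC WT and 572.2 ± 7.63 in STR WT.

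Cacna1h was high in NPCs, at 17.7, 7.42 and 19.8 RPKM in NPC WT and 7.998, 7.59 and 5.53 RPKM in PFC WT. It was the 1 member called lower in PFC than in NPCs (−1.08 ± 0.36, adjusted p = 0.03154, edgeR), and without NPC replicate 2, the library low in oligodendrocyte markers, the difference was larger, at −1.41. The groups overlapped through that library, and the call was lost in 5 of 6 fits that left out a library, all but the one without NPC WT replicate 2. The next members by mean level in NPC WT were Cacnb3, with 11.28, 8.577 and 9.79 RPKM, and Cacna2d1, with 6.81, 13.5 and 8.42 RPKM, whose values overlapped. Markers of oligodendrocyte precursors summed to 1530 to 2430 CPM and of astrocytes to 3410 to 6630 CPM in NPC WT, more than in either brain region, and their part in these levels was not tested.

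The remaining calls all favoured PFC. Of 27 members tested, 25 were higher in PFC WT than in NPC WT and 1 lower, against 40% and 37.1% of all genes, with a median log2 difference of 4.30 against 0.04 over all genes. Scn4b had 0 counts in the 3 NPC WT libraries and 1648, 2021 and 1269 in PFC WT, at least 2263-fold higher against a floor of 3 counts over the NPC group. Scn2b (8.80 ± 0.21), Cacna1e (8.09 ± 0.36), Cacna1i (6.97 ± 0.21) and Scn1a (6.82 ± 0.27) followed on the log2 scale. In NPC WT, Scn2b had 11, 5 and 6 counts, Cacna1e 15, 7 and 3, Cacna1i 11, 11 and 22 and Scn1a 32, 10 and 22. Scn4b and these members passed the filter on low counts only through PFC WT, where they are high. Their calls are therefore not independent of that filter. The 25 calls and the median include them and others, such as Scn9a with 0, 0 and 2 counts in NPC WT. File names of the cultured libraries give an unstranded counting setting that those of the brain libraries do not name, so tissue and counting cannot be told apart here. The share of multi-mapped reads, which were not counted, was also higher in the cultured libraries.

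NPC WT against ESC WT gave 20 calls among 23 members tested, 14 higher and 6 lower in NPCs, against 34.6% and 36.6% of all genes. The calls that held in all 5 fits without a library numbered 11. Higher in NPCs were, among others, Cacnb2 (log2 difference 4.73 ± 0.66), Cacna1d (3.95 ± 0.47), Cacna1h (3.83 ± 0.50), Cacnb4 (3.78 ± 0.49), Cacna2d1 (2.81 ± 0.40), Scn2a (2.51 ± 0.42) and Cacnb1 (0.85 ± 0.13). Lower in NPCs were Cacna2d2 (−3.17 ± 0.60), Scn2b (−2.35 ± 0.40) and Cacna1a (−1.45 ± 0.31). Cacna1a, for instance, measured 3.57 and 3.25 RPKM in ESC WT and 1.49, 0.715 and 1.33 RPKM in NPC WT. Cacnb2 (2 and 11 counts in ESC WT), Cacna1d (5 and 2) and Cacnb4 (2 and 5) passed the filter on low counts only through NPC WT. Scn2b (11, 5 and 6 counts in NPC WT) and Cacna2d2 (7, 4 and 23) passed it only through ESC WT. Each is high in the group it passed through, so its call is not independent of that filter. Both ESC libraries carried a pluripotency marker sum of 4000 to 4710 CPM. They differed from each other in some members, with Cacna1g at 0.228 and 1.27 RPKM and Cacna1c at 0.0332 and 0.247 RPKM, and the same split by replicate number was seen in ESC KO (Cacna1g 0.288 and 1.58, Cacna1c 0.0292 and 0.265 RPKM). Without ESC WT replicate 2 the difference of Cacna1g went from −2.31 to −0.60 and was no longer called, and that of Cacna1c from 2.91 to 4.98.

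The last comparisons set Phf8 KO against WT. By the edgeR quasi-likelihood test with Benjamini-Hochberg adjustment no member was called in PFC (27 tested), STR (30), NPCs (23) or ESCs (18), where 0.638%, 0%, 0.00697% and 0% of all genes were called. A fit with the replicate number as a block called Cacna2d1 in ESCs, with values given in the last section. At an unadjusted p under 0.05 the counts were 9 in PFC, 4 in STR, 3 in NPCs and 0 in ESCs, against 11.2%, 8.7%, 3.03% and 1.13% of all genes. DESeq2 called 3 members in PFC, 1 in STR and 0 in NPCs and ESCs, where it called 1.36%, 0.402%, 0.0131% and 0.0125% of all genes. The edgeR exact test called 6, 2, 0 and 0 members, against 2.45%, 0.672%, 0.0139% and 0.0133% of all genes.

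In PFC, of the 27 members, 21 had a positive log2 difference, with a median of 0.14 against −0.02 over all genes. In 10 members every KO library lay above every WT library, against 8.72% of all genes, and in 1, Scn4b, every KO library lay below, against 8.39%. Cacna1e (chromosome 1, 154390731 to 154884501) had the smallest p, with 8.47, 7.85 and 6.15 RPKM in WT and 10.7, 9.35 and 10.6 RPKM in KO. The groups did not overlap, and the log2 difference was 0.43 ± 0.11 (adjusted p = 0.0986, edgeR). Scn3b measured 22.5, 21.8 and 24.8 RPKM in WT and 29.1, 27.3 and 29.0 RPKM in KO (0.30 ± 0.08, adjusted p = 0.1119, edgeR), and Scn7a 0.919, 0.740 and 0.489 RPKM in WT and 1.08, 1.27 and 1.60 RPKM in KO (0.84 ± 0.22, adjusted p = 0.1299, edgeR).

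Other members with an unadjusted p under 0.05 in PFC were Cacna1h (0.42 ± 0.11), Cacna1d (0.33 ± 0.11), Scn3a (0.31 ± 0.10), Scn2a (0.31 ± 0.08), Cacna1g (0.24 ± 0.09) and, in the other direction, Scn4b (−0.34 ± 0.09). DESeq2 called Cacna1e, Cacna1h and Scn2a at adjusted p of 0.00708, 0.0393 and 0.0350. The edgeR exact test and the quasi-likelihood test without a filter on low counts each called 6 members, these 3 with Scn3b, Scn7a and Scn4b, and without that filter 1.57% of all genes were called. The call of a PFC member thus depended on the test.

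Transcript length and 1 WT library moved with these values. Among all genes tested in PFC, the median KO difference went from −0.07 for genes with under 2 kb of exon to 0.05 for the 1433 genes over 10 kb, and 12 of the 27 members are in the longest class, with a median of 0.20. Without PFC WT replicate 3 the median of all genes over 10 kb was 0.02, the 12 members had a median of 0.14, and 22 of the 28 members then tested were positive with a median of 0.13. In that fit, which called 0.792% of all genes, Scn3b was called (0.36, adjusted p = 0.0277, edgeR), Cacna1e was at 0.32 (adjusted p = 0.06716, edgeR) and Scn7a at 0.67 (adjusted p = 0.1691, edgeR). Cacna1d was at 0.20, Cacna1g at 0.14, Scn3a at 0.21, Cacna1h at 0.29, Scn2a at 0.28 and Scn4b at −0.28, none of them called. Oligodendrocyte markers also moved with genotype in PFC, with summed levels of 1980 to 2560 CPM in WT and 1580 to 1690 CPM in KO and 5 of 8 genes called lower. Of the oligodendrocyte precursor markers, which summed to 237 to 300 CPM in WT and 215 to 231 CPM in KO, 1 of 5 was called lower, Sox10 (−0.59, adjusted p = 0.04711, edgeR). Of the astrocyte markers, whose sums overlapped (1880 to 2030 and 1820 to 1940 CPM), 1 of 6 was called lower, Gfap (−0.49, adjusted p = 0.01139, edgeR). Sums of cortical projection neuron markers also overlapped (869 to 1090 and 1030 to 1080 CPM). The part of these shifts in the member values was not tested.

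**Figure D3:**
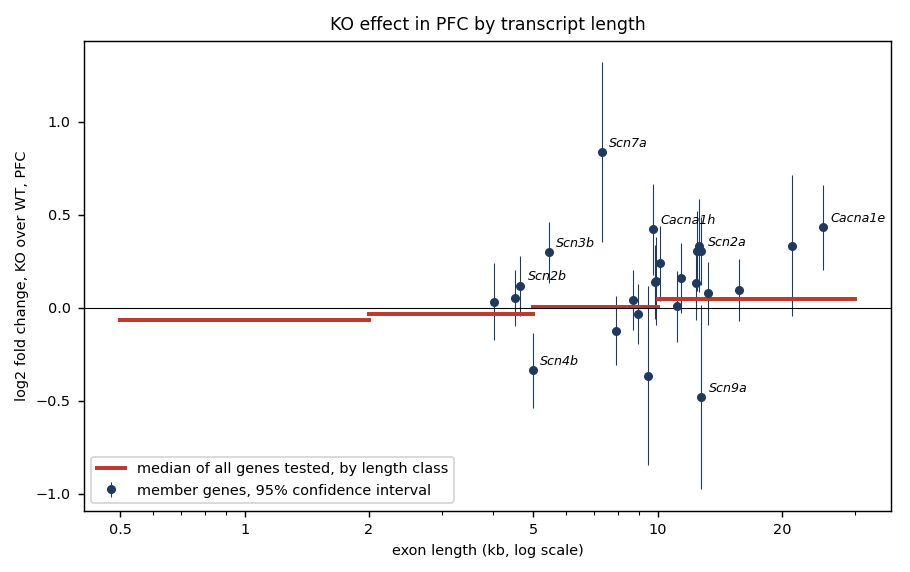
Log2 fold change of KO over WT in PFC against exon length (kb, log axis) for 25 of the members tested, with 95% confidence intervals, and the median of all genes in 4 length classes as red lines. The red lines go from −0.07 to 0.05 with length, and 11 of the 12 members longer than 10 kb lie above 0.

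In STR 19 of 30 members had a positive difference, and the median was 0.05. Scn11a had 4, 2 and 8 counts in WT and 19, 15 and 16 in KO (1.87 ± 0.46, adjusted p = 0.3967, edgeR), and Cacna2d2 measured 20.3, 17.8 and 20.6 RPKM in WT and 26.8, 22.3 and 23.0 RPKM in KO (0.31 ± 0.10, adjusted p = 0.427, edgeR). Scn11a passed the filter on low counts only through the KO libraries, so its test is not independent of that filter.

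In 4 members, among them Scn11a, Cacna2d2 and Cacna1g, every KO library lay above every WT library, against 6.49% of all genes. Without STR KO replicate 1, the library with hypothalamic markers, Scn11a was at 1.79 and Cacna2d2 at 0.21, neither of them called, and 16 of 30 members were positive. The edgeR exact test, run on the same filtered genes, called Scn11a, which DESeq2 gave no adjusted p. Scn7a, at 1.01 RPKM in STR KO replicate 1 and 0.256 and 0.328 RPKM in the others, went from a log2 difference of 0.75 to −0.14 without that library.

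**Figure D4:**
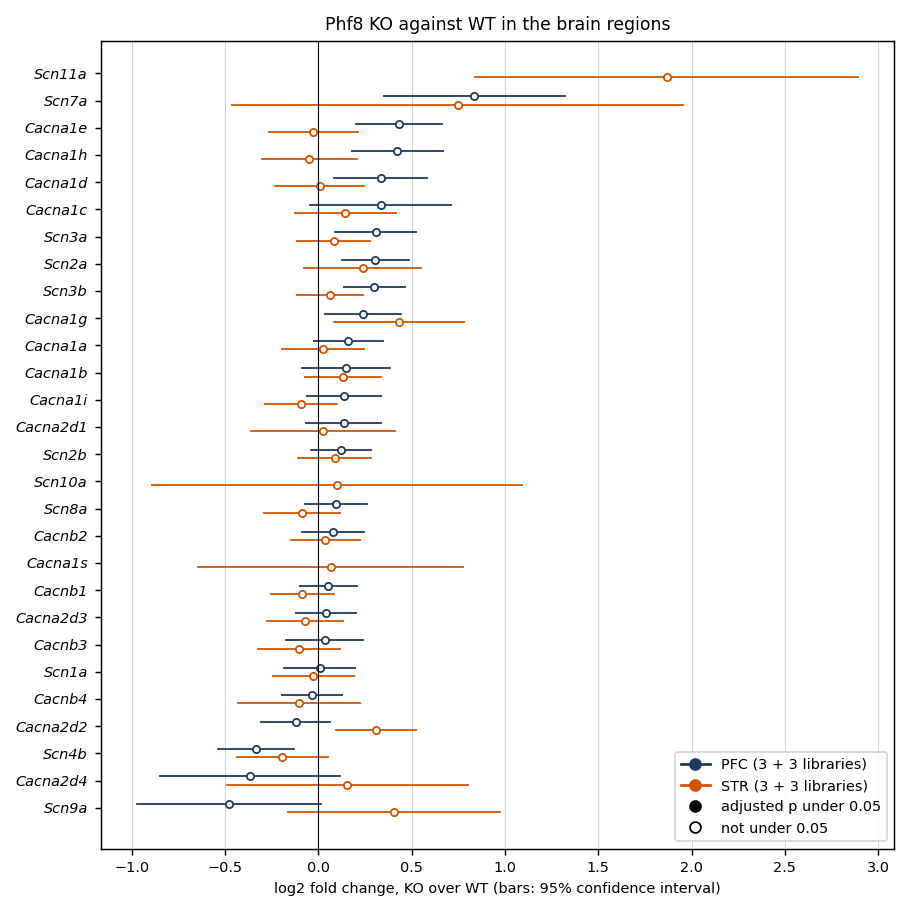
Log2 fold change of KO over WT with 95% confidence intervals for the members tested in PFC (dark blue) and STR (orange), with no filled point because no adjusted p is under 0.05. Cacna1e and Cacna1h lie at 0.43 and 0.42 in PFC and at −0.03 and −0.05 in STR, and Cacna2d2 lies at 0.31 in STR.

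Whether the KO effect differed between PFC and STR was tested directly as an interaction over the 12 brain libraries. No member passed, against 0.00624% of all genes, and 5 of 30 had an unadjusted p under 0.05, against 6.41%. The smallest p belonged to Cacna2d2 (−0.40 ± 0.13, adjusted p = 0.6321, edgeR), followed by Cacna1e (0.49 ± 0.17), Cacna1h (0.50 ± 0.18), Scn3b (0.27 ± 0.11) and Scn9a (−0.86 ± 0.37). For Cacna1e the WT regions differed and the KO regions did not, since the KO PFC value of 10.2 ± 0.739 RPKM lay beside STR levels of 9.86 ± 0.619 in WT and 9.62 ± 1.55 in KO, but the difference of differences was not called (adjusted p = 0.647, edgeR).

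**Figure D5:**
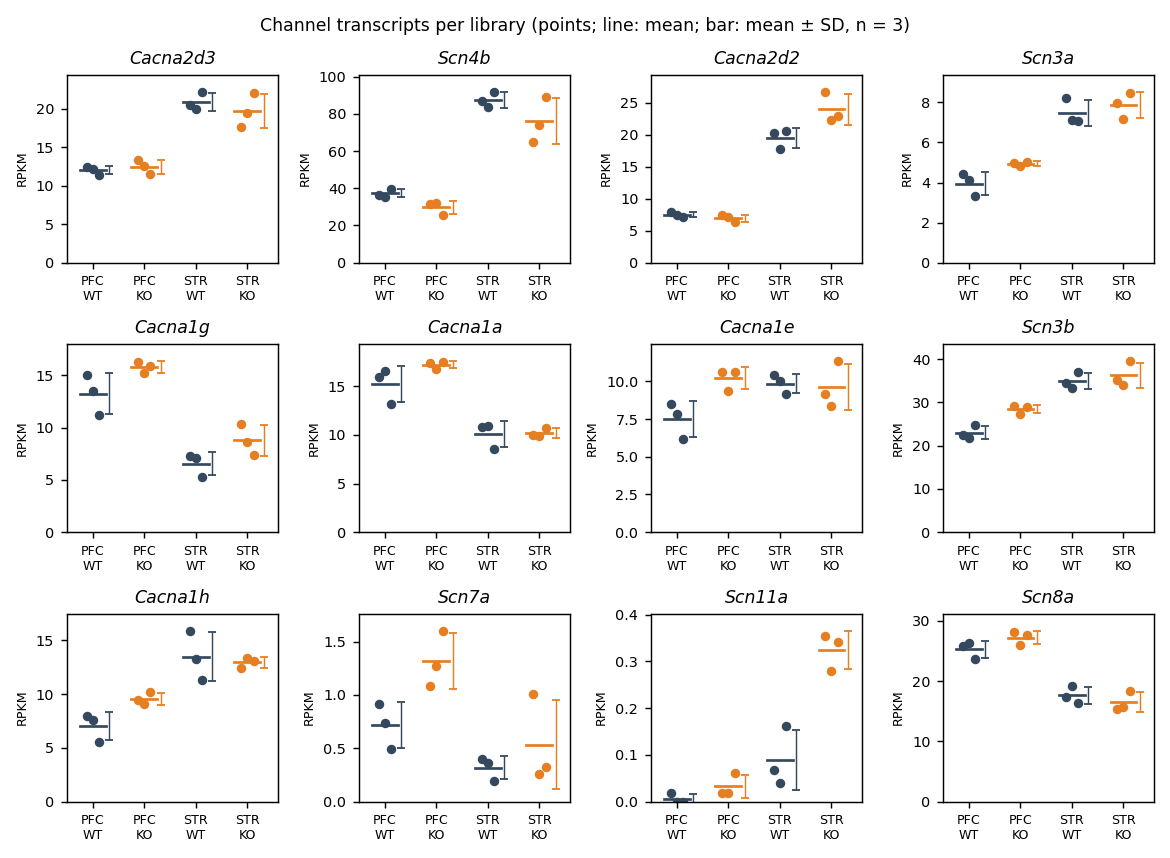
RPKM of 12 members in each PFC and STR library (points), with the mean (line) and SD (bar, n = 3), WT in dark grey and KO in orange, each axis starting at 0. Scn4b, Cacna2d2, Cacna2d3 and Scn3a are higher in STR in both genotypes, Cacna1g and Cacna1a are higher in PFC, and in PFC the KO points of Cacna1e, Scn3b, Cacna1h and Scn7a lie above the WT points.

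In NPCs the members with an unadjusted p under 0.05 were Scn2a, Cacna1i and Scn2b. Scn2a had 109, 85 and 92 counts in WT and 138, 152 and 118 in KO, with no overlap between groups (0.51 ± 0.18, adjusted p = 0.9998, edgeR). Cacna1i (1.02 ± 0.36) and Scn2b (1.19 ± 0.45) rested on at most 39 counts per library. Without NPC WT replicate 2 these differences were 0.52, 0.93 and 1.06, and without NPC KO replicate 2 they were 0.45, 1.22 and 0.98, for Scn2a, Cacna1i and Scn2b in turn, none of them called. Cacna1h overlapped between genotypes, with 18.4, 12.2 and 16.6 RPKM in KO. In ESCs the largest level, Cacnb3, was at 4.74 and 7.62 RPKM in WT and 5.12 and 8.01 RPKM in KO. No partner gene of either channel was called between genotypes in any of the 4 tissues.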

How the data were processed

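RNA-seq gene counts from 22 libraries were used. Per the labels, libraries were made with the Illumina TruSeq RNA kit and the submitters' processing notes name CASAVA 1.7, STAR and mm10. The authors counted reads per Ensembl gene with HTSeq and deposited whole-number counts, not normalized. Of the 39179 identifiers 37693 matched GENCODE M21 (GRCm38), with 99.709% of counts, and symbols, positions and exon lengths come from it. Rows that name no gene were left out: reads without a feature were 5.35% to 15.4% of all counted reads in a library and ambiguous reads 1.29% to 2.66%. Multi-mapped reads were 7.62% to 8.9% in brain, 33.2% to 34.3% in NPC and 43.2% to 45.5% in ESC libraries. RPKM were computed with edgeR 4.0.16 (R 4.3.3) from TMM-scaled libraries and union exon length. Each comparison was fitted on its own groups over all genes passing filterByExpr with TMM, glmQLFit (robust) and glmQLFTest, and a gene was called at a Benjamini-Hochberg adjusted p under 0.05. Standard errors are the log2 difference over the square root of F. DESeq2 1.42.0 and other settings were alternatives. The fitting code was tested on simulated data.

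Nothing in the labels ties the libraries to separate animals or cultures, so p-values measure the spread between these samples. No replicates agreed within sampling noise. Same-numbered libraries deviated together in NPC KO against WT (r of 0.585, 0.721 and 0.538 for numbers 1 to 3), PFC against STR in WT (0.374, 0.189 and 0.414) and in KO (0.18, 0.201 and 0.148), so a fit with the replicate number as a block is also given there. They did so in ESC KO against WT too (0.888, against −0.888 for unlike numbers). With 2 libraries a group these values are not independent, and the block fit is given among the alternatives. Full values are given for the 3 members with the smallest p in each brain region in KO against WT and the 8 with the smallest adjusted p in each direction in PFC against STR (WT). The members, partner lists and marker lists were chosen with earlier results of these data known. Exon overlap with antisense genes was counted because the strand setting is not given in the sources used here for the brain libraries. Values of 2 members are not reported here, though counts and sums over the members include them.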

Additional observations from a re-analysis of the deposited data

How the results depend on the processing

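Counts of members called in KO against WT rose from 0 in PFC to 3 with DESeq2, 6 with the edgeR exact test and 6 without a filter on low counts (182 of 13392, 376 of 15364 and 379 of 24173 genes in all, against 98 of 15364), and ranged from 0 to 1 when a library was left out (1 without PFC WT replicate 3). In STR they rose from 0 to 1 with DESeq2 and 2 with the exact test (60 of 14928 and 104 of 15476 genes, against 0). In ESCs the replicate block gave 1 (Cacna2d1, 0.40, adjusted p = 0.02876, edgeR) among 513 genes called of 15080, against 0. Same-numbered ESC libraries correlated at 0.888 over all genes, which is 1 value because 2 libraries of a group deviate by equal and opposite amounts. The numbers are not known to pair these samples. With a log2 fold change beyond 1 also required, PFC against STR gave 6 members in WT and 5 in KO in place of 19 and 18, by construction of the threshold. Leaving out a library gave 14 to 19 in WT and 16 to 21 in KO. NPC against ESC gave 9 with at least 10 counts in every library (11 members tested), 11 with the replicate block, and 13 to 18 when a library was left out, with 13 without ESC WT replicate 1 and 13 without NPC WT replicate 3 in place of 20. The cause of the lower count with the block was not tested. PFC against NPC gave 24 to 27 when a library was left out. The replicate block gave 22 and 21 calls in PFC against STR and changed no member call in KO against WT in PFC, STR or NPCs. It gave 25 in PFC against NPC, without Cacna1h. Same-numbered libraries correlated at 0.0615, −0.0318 and 0.0446 in KO against WT in PFC, at 0.0627, −0.0211 and 0.135 in STR, at 0.0132 and −0.0285 in NPC against ESC and at −0.0461, 0.0357 and 0.0291 in PFC against NPC, where not every library correlated best with its own number, so the numbers were not taken to pair these samples. The interaction stayed at 0 in every alternative run, and the exact test cannot be had for it. Fits without PFC WT replicate 3 by transcript length were chosen after seeing the data.

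With 3 libraries a group, or 2 in ESCs, low genes had wide intervals. The KO difference of Scn11a in STR, on 2 to 19 counts a library, had a 95% interval of 0.84 to 2.89 (log2). That interval is for a gene that passed the filter only through the KO libraries.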
